A study of Homo sapiens with 12 samples.

Results

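The lysosomal module examined here holds 47 of the 20003 genes measured in the leukemia cell lines NB4 and Kasumi-1. It was defined by gene symbol and not by a cutoff on any measured value, but its members were chosen with earlier results of these data known. It holds 16 genes of the proton pump, the vacuolar H+-ATPase (V-ATPase), all with the ATP6 prefix, and 31 other lysosomal genes, which encode hydrolases, their soluble cofactors and proteins of the lysosomal membrane. The NB4 line derives from acute promyelocytic leukemia and expresses the fusion PML-RARα. The Kasumi-1 line derives from another acute myeloid leukemia and expresses the fusion AML1-ETO. Each line was sampled as 3 DMSO controls and 3 cultures given 1 μM OGP46, a compound known here by its code name, which makes 12 samples of poly(A) mRNA. The labels and the study's methods give 48 h of incubation, and a legend of the study gives a different time. Each line is 1 cell line grown in culture, so the samples stand for repeats of that line and not for patients. The labels do not say whether the samples came from separate cultures. The study's legend to its sequencing figure speaks of 3 independent experiments, without saying which samples belong to which. The p-values below measure the spread between these samples only. Values are FPKM, sequenced fragments corrected for a gene's exon length and for how many fragments mapped in the sample, so levels can be compared between genes per unit of length.

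Lysosomes are acidic organelles in which proteins, glycans, lipids and nucleic acids are broken down. The V-ATPase pumps protons into them, with a V1 sector in the cytosol that splits ATP and a V0 sector in the membrane that carries the protons, and most of the hydrolases need the resulting low pH. Many lysosomal genes carry the palindromic CLEAR element in their promoters, which is bound by factors of the MiT/TFE family (TFEB, TFE3, TFEC and MITF), and myeloid cells build up lysosomes and granules as they mature.

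The FPKM of all genes summed to 248207 to 310262 per sample, and 9339 to 9746 genes reached 1 FPKM. The depth behind these values is unknown. The 6 Kasumi-1 markers (RUNX1T1, KIT, CD34, HLA-DRA, TRH and POU4F1) summed to 273 to 310.2 FPKM in the Kasumi-1 controls and to 0.737 to 3.87 FPKM in the NB4 controls, where NB4 control 3 was highest. Of the 3 markers chosen for NB4, only STAB1 was higher there, with means of 9.21 FPKM in the NB4 and 0.332 FPKM in the Kasumi-1 controls. HGF was lower in the NB4 controls, at means of 8.8 against 13.5 FPKM, without overlap. FGF13 was listed at 0 in NB4 cells, with a mean of 0.208 FPKM in the Kasumi-1 controls. The check of the NB4 label thus rests on the absence of the Kasumi-1 markers. Summed markers of monocytes and macrophages were higher with OGP46 in both lines, in Kasumi-1 mainly through 1 gene, CD68. The 6 monocyte and macrophage markers (CD14, CD68, CSF1R, ITGAM, ITGAX and C5AR1) summed to 14.96 to 15.98 FPKM in the NB4 controls and to 26.7 to 34.1 FPKM with OGP46, and to 9.71 to 12.8 and 13.8 to 15.6 FPKM in Kasumi-1 cells. Of these, 4 (C5AR1, CD68, ITGAM and ITGAX) passed the test in NB4, against 1.45% of all genes on the higher side. In Kasumi-1 0 of the 4 tested passed (0.0338% of all genes), and CD14 was at most 0.0281 FPKM there. With same-numbered samples as a block, all 6 passed in NB4 and 0 of the 4 in Kasumi-1. The 5 primary granule genes (MPO, AZU1, PRTN3, ELANE and CTSG) summed to 2605 to 3945 FPKM in the controls and 1586 to 2812 FPKM with OGP46 in NB4, which overlap, and to 9612 to 11920.0 and 7759 to 8972 FPKM in Kasumi-1. Of these genes 0 passed in either line without the block. With it, 4 (AZU1, CTSG, ELANE and PRTN3) passed as lower in NB4 and 0 in Kasumi-1. All 5 were lower in each of the 3 pairs of both lines. The Kasumi-1 groups did not overlap for MPO, PRTN3 and ELANE, while the NB4 groups overlapped for all 5. Of the 3 T cell genes, CD3D was at 13.5 to 20.5 FPKM in the NB4 controls and 22.5 to 34.7 FPKM with OGP46, and the list's sum was below 0.70 FPKM in every Kasumi-1 sample. The genes of erythroid cells and of fibroblasts were at or near 0 in every sample, and of the B cell genes MS4A1 was listed at 0 throughout. In such bulk samples a change in the mix of cells and a change in RNA per cell cannot be told apart. The part of these markers in the lysosomal results was not tested.

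RefSeq promoter windows, from 250 bases before to 50 after the gene start on GRCh38.p14, were at hand for 33 of the 47 members. The E-box CACGTG stood in 9 of the 33 windows (27.3%), against 7.26% of all 35116 windows and 9.61% of those of the genes tested in NB4. The longer core TCACGTGA, which contains the E-box, stood in 6 (18.2%), against 0.98% and 1.77%. The full 10-letter CLEAR palindrome, which adds a base on each side of this core and contains both, stood in 4 (12.1%), against 0.353% and 0.718%. As many lysosomal genes are known to carry the CLEAR element, a higher share in this module is no independent result. Members count by 1 window each, while the windows they are set against can include several per gene. Each motif is its own reverse complement, so both strands are searched at once. The stretches below belong to the 6 members that held the 8-letter core or the full palindrome, and are printed 5′ to 3′ on the gene's strand, upstream of the gene start, with every match to the core or the palindrome in capitals. They are shown because the element is what part of this module shares beyond its function.
MCOLN1, chr19:7522548-7522623, plus strand: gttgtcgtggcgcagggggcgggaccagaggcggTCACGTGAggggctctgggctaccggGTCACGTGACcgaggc
GAA, chr17:80101443-80101572, plus strand: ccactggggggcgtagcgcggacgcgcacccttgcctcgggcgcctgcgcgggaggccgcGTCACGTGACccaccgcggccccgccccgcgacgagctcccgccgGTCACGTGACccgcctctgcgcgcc
ATP6V1G1, chr9:114587649-114587768, plus strand: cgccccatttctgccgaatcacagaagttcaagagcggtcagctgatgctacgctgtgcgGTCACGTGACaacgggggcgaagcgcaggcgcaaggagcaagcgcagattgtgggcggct
GALNS, chr16:88857054-88857183, minus strand: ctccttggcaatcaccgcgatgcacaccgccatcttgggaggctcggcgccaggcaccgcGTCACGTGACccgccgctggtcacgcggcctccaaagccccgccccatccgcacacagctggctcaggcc
ATP6V0D1, chr16:67481158-67481277, minus strand: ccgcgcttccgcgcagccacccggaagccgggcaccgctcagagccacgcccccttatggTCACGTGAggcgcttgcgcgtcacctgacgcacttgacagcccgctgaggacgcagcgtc
LAMP1, chr13:113297150-113297238, plus strand: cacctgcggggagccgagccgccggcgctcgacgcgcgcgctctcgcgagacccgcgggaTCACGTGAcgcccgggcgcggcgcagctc

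MCOLN1 held 1 full palindrome and 1 shorter core, and GAA held the palindrome at 2 places. In NB4 cells the log2 fold changes of these 6 members with OGP46 were 0.62 for MCOLN1, 0.42 for GAA and 0.36 for ATP6V0D1. They were 0.21 for LAMP1, 0.21 for ATP6V1G1 and −0.28 for GALNS. Among the 6 only MCOLN1 passed the test, and GALNS had overlapping groups (limma-adjusted p = 0.203). The fold changes were not tested against each other, and the part of the element in them was not tested. A match is a match of letters only, and binding was not measured.

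To see how much of the transcript pool the module took, the FPKM of its members were summed. In NB4 cells the members held 0.483 to 0.493% of all FPKM in the 3 controls and 0.533 to 0.553% in the 3 samples with OGP46. In Kasumi-1 cells the share was 0.582 to 0.601% in the controls and 0.652 to 0.668% with OGP46. Control and OGP46 samples overlapped in neither line, and the Kasumi-1 controls lay above all NB4 samples. The share of the V-ATPase genes was 0.256 ± 0.00766% (SD, n = 3) in the NB4 controls and 0.283 ± 0.0116% (SD, n = 3) with OGP46, and 0.220 ± 0.00568% and 0.247 ± 0.00308% (SD, n = 3 each) in Kasumi-1 cells. The share of the other lysosomal genes was 0.232 ± 0.00783% and 0.258 ± 0.00366% in NB4 and 0.372 ± 0.00436% and 0.411 ± 0.00558% in Kasumi-1 (SD, n = 3 each). Among the controls, the pump's share was higher in all NB4 than in all Kasumi-1 samples, and the share of the other genes was higher in all Kasumi-1 samples. The pump's summed FPKM was alike, at means of 649 in the NB4 and 643 in the Kasumi-1 controls, while all genes summed to means of 253510 and 292330. The higher share was not pump-wide. In the same order ATP6V0C was at means of 129 and 67.2 FPKM, the V1 genes summed to 235 and 236 FPKM and the accessory genes to 87.2 and 135 FPKM. A share is not altered when a whole sample is rescaled, but the most abundant members weigh most in it. No test was run on these sums.

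**Figure D1:**
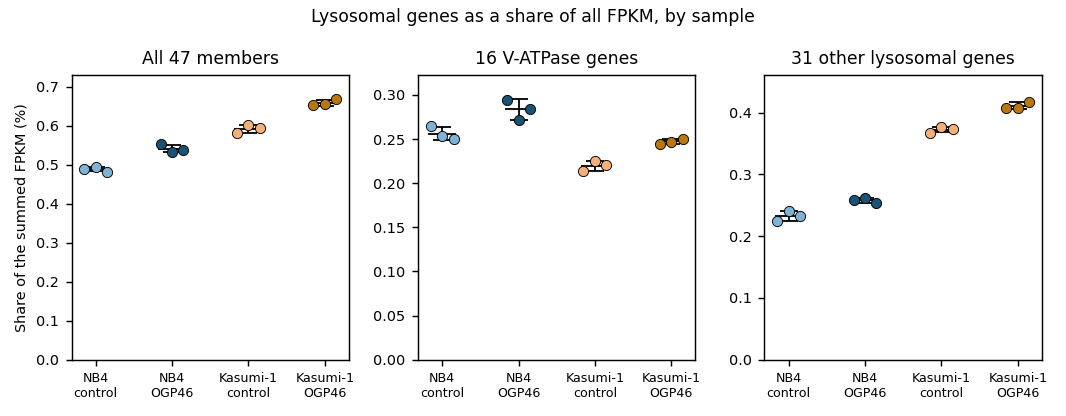
Summed FPKM of the lysosomal genes as a percentage of the FPKM of all genes (y axis) in the 4 groups (x axis), for all 47 members, the 16 V-ATPase genes and the 31 others. Points are samples, horizontal marks and bars are the mean and SD (n = 3). In each panel and each cell line the 3 OGP46 samples lie above the 3 controls. By share, the panels of the V-ATPase and of the other genes rank the cell lines in opposite order. The summed FPKM of the V-ATPase genes overlapped between the control groups.

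The module was well expressed. In the NB4 controls 44 members had a mean of at least 1 FPKM, with a median of 15.2 FPKM over the 47, and 30 of the 47 exceeded 7.79 FPKM, the median of all genes at 1 FPKM or more. In the Kasumi-1 controls 43 members reached 1 FPKM, with a median of 25.99 FPKM, and 34 exceeded the corresponding 7.69 FPKM. The highest member of NB4 was ATP6V0C, the proteolipid of the V0 ring, at 129 ± 7.08 FPKM in the controls. The highest of Kasumi-1 was PSAP, the precursor of the saposins that present lipids to hydrolases, at 217 ± 18.6 FPKM (SD, n = 3 each). LGMN, which encodes the protease legumain, was the lowest in both controls and was listed at 0 in 5 of the 6 NB4 samples, with 0.0394 FPKM in control 3. Across the members at 1 FPKM or more, the median coefficient of variation between replicates was 7.67% in the NB4 controls, 8.38% with OGP46, 7.25% in the Kasumi-1 controls and 3.97% with OGP46.

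The first comparison asked how the module responded to OGP46 in NB4 cells. Most members were slightly higher with OGP46, and those that passed the test act in the turnover of sphingomyelin, cholesterol, fucose and sialic acid or in calcium release. Of 45 members tested, 5 were up-regulated and 0 down-regulated, where up-regulated means a Benjamini-Hochberg adjusted p from limma under 0.05 together with an increase of 0.58 or more on the log2 scale. These were SMPD1, FUCA1, MCOLN1, NPC1 and NEU1. Of all 11750 genes tested, 1.45% were up-regulated. SGSH, a heparan sulfatase, and LGMN were below the mean of 0.1 FPKM needed for testing. The values of all genes shifted with OGP46 in NB4, with a median log2 fold change of 0.18, and 81.9% of all genes were above 0. Against this, 43 of the 45 members were above 0, 38 exceeded the median of all genes, and the members' median was 0.35. In 31 members all 3 OGP46 samples exceeded all 3 controls, which held for 32.7% of all genes on the higher side.

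The 5 calls rested on the values as deposited. When the values were scaled to TPM, centred on the median or quantile-normalized, 0 members passed the threshold, with 19, 13 and 16 members higher at an unadjusted p below 0.05 (11.9%, 5.18% and 7.1% of all genes). The median of all genes then moved to 0.06, −0.04 and −0.01, and the members' median to 0.22, 0.13 and 0.18. The members' excess over all genes was 0.17 as deposited and 0.17, 0.17 and 0.18 under the 3 scalings, and 38 of 45 members exceeded the median of all genes under each. All genes here include many that are weaker than most members. In neither line were the members set against genes of similar level. The 5 calls also ended when any 1 sample other than OGP46 sample 2 was left out, and without OGP46 sample 2 there were 6.

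Control and OGP46 samples of the same number shared part of their deviations, and with the sample number as a block in the model the same 5 members were up-regulated (5.06% of all genes). At an adjusted p below 0.05 with no minimum fold change, limma called 9 members without the block, against 2.57% of all genes, and 26 with it, against 22.9%. All of these members were higher with OGP46. The 26 comprised 11 of the 16 V-ATPase genes and 15 of the 29 other members tested. With the block, this count was 20 after TPM scaling (13.7% of all genes), 13 after quantile normalization (11.8%) and 9 after median centring (14.4%), where the last 2 each included 1 member that was lower. It was 30 without the pair numbered 1 (28.2%), 10 without the pair numbered 2 (8.63%) and 22 without the pair numbered 3 (15.5%).

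Among the lipid hydrolases, SMPD1 changed most in the whole module. It encodes acid sphingomyelinase, which cleaves sphingomyelin to ceramide. SMPD1 (chr11:6390474-6394996, GRCh38.p14) was at 1.20, 0.906 and 1.30 FPKM in the NB4 controls and at 2.33, 1.98 and 2.42 FPKM with OGP46. Every OGP46 sample exceeded every control, and the same held in Kasumi-1, where it was at 1.96, 1.92 and 1.58 FPKM in the controls and 2.86, 2.13 and 2.34 FPKM with OGP46. Its log2 fold change in NB4 was 0.94 (SE 0.16, limma-adjusted p = 0.0364). PPT1, a palmitoyl-protein thioesterase, changed least in this class. It was at 51.2, 60.3 and 51.0 FPKM and then at 48.4, 66.4 and 62.8 FPKM, with overlapping groups and a log2 fold change of 0.12 that turned to −0.0068, −0.10 and −0.018 under TPM scaling, median centring and quantile normalization. The acid ceramidase gene ASAH1 and the acid lipase gene LIPA had log2 fold changes of 0.29 and 0.23, which did not pass.

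Of the 6 membrane proteins, 2 were up-regulated. NPC1 (chr18:23506184-23586506), the cholesterol exporter of the lysosomal membrane, was at 2.75, 2.63 and 2.58 FPKM in the NB4 controls and at 4.03, 4.28 and 3.94 FPKM with OGP46. The groups lay far apart relative to their spread, and the log2 fold change was 0.60 (SE 0.10, limma-adjusted p = 0.0335), the smallest adjusted p of the module. MCOLN1 (chr19:7522624-7534009), the calcium channel mucolipin 1, was at 2.73, 2.89 and 2.86 FPKM and then at 5.14, 3.83 and 4.29 FPKM. The controls were tight and OGP46 sample 1 was highest, with a log2 fold change of 0.62 (SE 0.13, limma-adjusted p = 0.0470). SCARB2, the receptor that delivers β-glucocerebrosidase, was at 4.20, 4.47 and 4.06 FPKM and then at 6.01, 6.42 and 6.16 FPKM. Its groups did not overlap and its adjusted p was 0.0350 in limma, but its log2 fold change of 0.54 lay under the minimum. CD63 (0.34), LAMP2 (0.29) and LAMP1 (0.21), the abundant structural glycoproteins, had smaller log2 fold changes. LAMP1 was at 90.4, 98.8 and 89.9 FPKM in the controls and 98.8, 115 and 109.8 FPKM with OGP46, with overlapping groups, and it turned to −0.011 after median centring. MCOLN1 shares exon positions on its own strand with PNPLA6, and NPC1 overlaps RMC1 on the opposite strand, so reads of these neighbours may enter their values. The mean of PNPLA6 was 6.31 and 7.45 FPKM in the NB4 controls and with OGP46, and that of RMC1 was 7.52 and 9.45 FPKM. The same limit holds for GLB1, with TMPPE on its own strand. It also holds for ACP2, ATP6V1D, GALNS, PPT1 and SGSH, each with a gene on the opposite strand. In NB4 TRAPPC2L, over GALNS, was at 13.4 and 12.8 FPKM, and CAP1, over PPT1, at 59.6 and 84.7 FPKM.

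Of the 10 glycosidases, 2 were up-regulated and the others stayed under the threshold. FUCA1 (chr1:23845077-23868290), which removes fucose from glycoproteins, was at 3.49, 3.23 and 2.67 FPKM in the NB4 controls and at 6.13, 4.83 and 4.74 FPKM with OGP46 (log2 fold change 0.72, SE 0.14, limma-adjusted p = 0.0451). NEU1 (chr6:31857659-31862821), the lysosomal sialidase, was at 17.1, 14.2 and 15.8 FPKM and then at 27.4, 20.99 and 23.1 FPKM (log2 fold change 0.59, SE 0.12, limma-adjusted p = 0.0450). For both genes every OGP46 sample exceeded every control. At the other end, MAN2B1, an α-mannosidase, was at 27.4, 30.7 and 32.2 FPKM and then at 30.7, 30.1 and 32.5 FPKM, with interleaved groups. Its log2 fold change of 0.05 turned to −0.077, −0.17 and −0.12 under TPM scaling, median centring and quantile normalization. The remaining 7 ranged from 0.08 for MANBA to 0.42 for GAA, and the glycosidases had a median of 0.21, close to the 0.18 of all genes. Among the sulfatases, IDS, which acts on heparan and dermatan sulfate, was at 2.93, 2.68 and 2.60 FPKM and then at 3.96, 4.05 and 4.34 FPKM. Its groups did not overlap, and with a log2 fold change of 0.57 (limma-adjusted p = 0.0383) it fell just short of the minimum. Only GALNS, a sulfatase of keratan and chondroitin sulfate, and the pump gene ATP6V1F were below 0. GALNS was at 2.60, 2.71 and 3.13 FPKM and then at 2.01, 2.62 and 2.26 FPKM, with overlapping groups and a log2 fold change of −0.28 that did not pass (limma-adjusted p = 0.203).

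TPP1, an aminopeptidase and the most abundant member near the threshold, was at 46.8, 52.01 and 40.5 FPKM in the NB4 controls and at 65.6, 72.2 and 66.7 FPKM with OGP46. The groups were well separated, with a log2 fold change of 0.56 (limma-adjusted p = 0.0383). ACP2, a lysosomal acid phosphatase, was at 5.35, 4.88 and 3.78 FPKM and then at 5.66, 6.21 and 5.85 FPKM, with a log2 fold change of 0.35 that did not pass. Of the soluble proteins that are not enzymes, NPC2, the cholesterol carrier that works with NPC1, was at 5.26, 6.13 and 5.81 FPKM and then at 8.04, 7.29 and 8.404 FPKM. Its groups did not overlap, and its log2 fold change was 0.46 (limma-adjusted p = 0.0572, or 0.00999 with the block). GRN, the granulin precursor, was at 45.3, 61.0 and 52.5 FPKM and then at 50.1, 69.4 and 61.5 FPKM. Each OGP46 sample exceeded its same-numbered control although the groups overlapped, with a log2 fold change of 0.19 that became −0.033 after median centring.

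**Figure D2:**
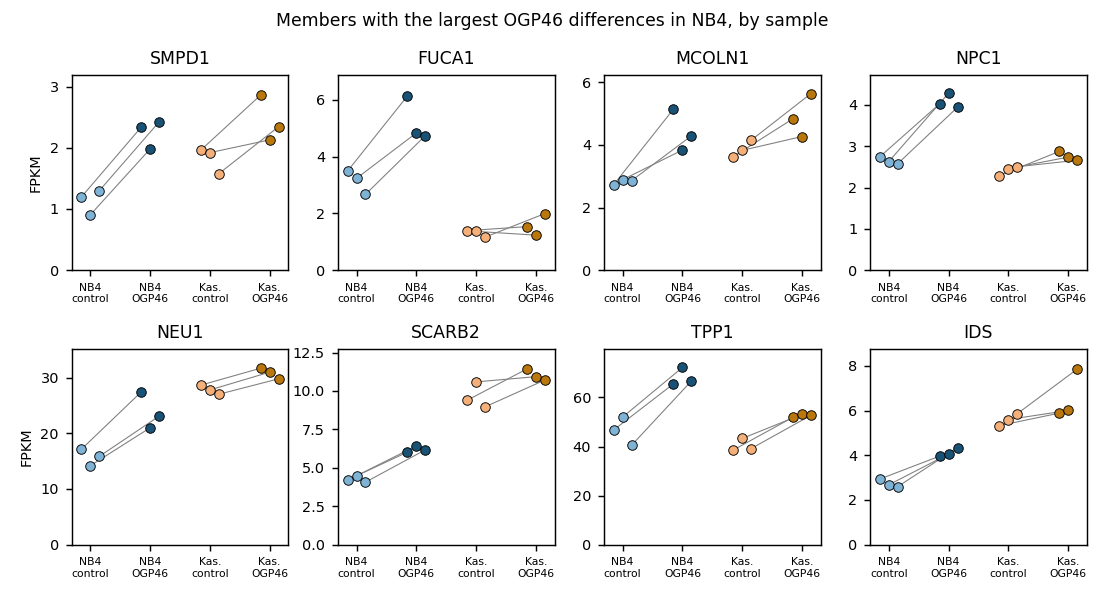
FPKM (y axis, from 0) of the 8 members with the largest log2 fold changes in NB4, in the 4 groups (x axis, Kas. for Kasumi-1). Points are samples and grey lines join same-numbered control and OGP46 samples. In NB4 all 3 OGP46 samples exceed all 3 controls in each of the 8 panels, and FUCA1 alone of the 8 overlaps between the Kasumi-1 groups.

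The proton pump showed many small changes of similar size. Of its 16 genes, 15 were above 0 in NB4 (81.9% of all genes) and the median log2 fold change was 0.35, but the largest was 0.44 and 0 reached 0.58. In 12 of the 16 all OGP46 samples exceeded all controls (32.7% of all genes). Of the V0 sector, ATP6V0A1, 1 of the isoforms of the membrane subunit a, was at 4.61, 4.02 and 4.42 FPKM and then at 5.94, 5.50 and 6.42 FPKM, with a log2 fold change of 0.44 (limma-adjusted p = 0.0644, or 0.00947 with the block). Its groups did not overlap. The other isoform ATP6V0A2 was at 8.601, 7.03 and 8.22 FPKM and then at 8.46, 8.73 and 10.1 FPKM. Those groups overlapped, and the log2 fold change of 0.19 became −0.026 after median centring and −0.0037 after quantile normalization. Of the V1 sector, ATP6V1B2, a subunit of the catalytic head, was at 30.8, 26.9 and 25.3 FPKM and then at 37.7, 36.1 and 38.0 FPKM. It was the only pump gene at an adjusted p below 0.05 without the block (log2 fold change 0.43, limma-adjusted p = 0.0472). ATP6V1F, a subunit of the central stalk, stood apart from the rest of its sector. It was at 82.5, 93.4 and 88.3 FPKM and then at 85.9, 87.4 and 90.0 FPKM, with a log2 fold change of −0.0038, which became 0.04 without control sample 2 and 0.01 without OGP46 sample 1. The other 7 V1 genes ranged from 0.21 (ATP6V1G1) to 0.43. The accessory proteins ATP6AP2, also known as the prorenin receptor, and ATP6AP1 had log2 fold changes of 0.39 and 0.24. ATP6AP2 was at 61.5, 58.9 and 51.9 FPKM and then at 72.6, 71.7 and 81.3 FPKM, and ATP6AP1 at 30.9, 27.6 and 30.7 FPKM and then at 34.5, 32.5 and 38.9 FPKM. Neither pair of groups overlapped, and neither gene passed.

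**Figure D3:**
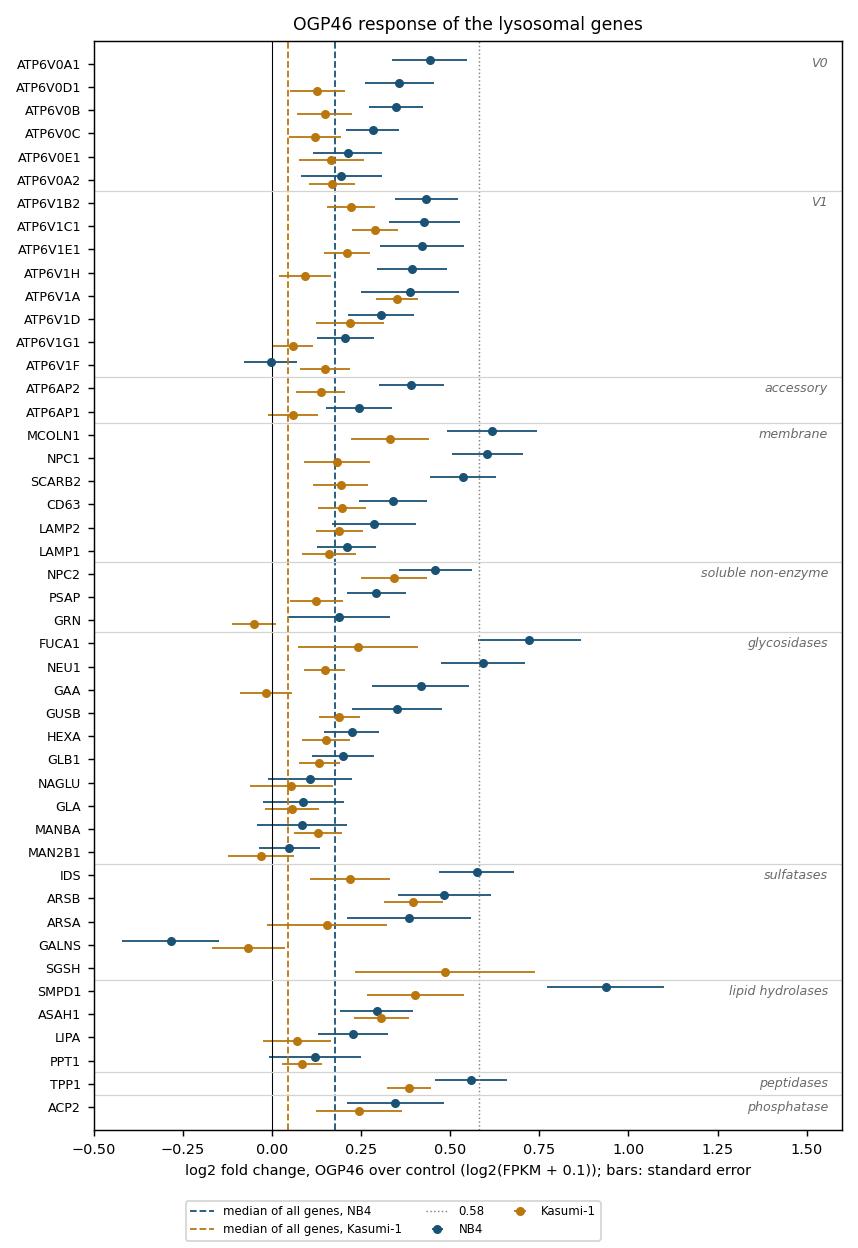
Log2 fold change of each tested member, OGP46 over control on the log2(FPKM + 0.1) scale (x axis), with its standard error from limma, by role, for NB4 (blue) and Kasumi-1 (brown). Dashed lines mark the median of all genes (0.18 in NB4 and 0.05 in Kasumi-1) and the dotted line the minimum of 0.58. The members lie mostly to the right of their line's median, with GALNS the lowest in both lines and SMPD1 the highest in NB4.

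In Kasumi-1 cells the same question gave smaller values and no call. Of 45 members tested, 0 passed the threshold, as against 0.0338% of the 11835 genes tested, and 0 passed with the block (0.617%). At an unadjusted p below 0.05, 19 members were higher and 0 lower, with 12.0% of all genes on the higher side. ATP6V0A1 and LGMN lay below the filter. The members' median log2 fold change was 0.16 against 0.05 for all genes, 41 of 45 were above 0 (62.0% of all genes), and in 21 the groups did not overlap with OGP46 higher (17.4%). The excess over all genes was 0.11 after TPM scaling, 0.11 after median centring and 0.14 after quantile normalization. With the block and no minimum fold change, limma called 6 members, all higher, against 3.56% of all genes. These were TPP1, NPC2, ATP6V1A, ARSB, ATP6V1C1 and ASAH1. This count was 25 after TPM scaling (12.9% of all genes), 15 after quantile normalization (7.44%) and 7 after median centring (9.92%). It was 2 without the pair numbered 1 (1.4%), 17 without the pair numbered 2 (5.76%) and 4 without the pair numbered 3 (4.44%).

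TPP1 had the smallest p of the members here. It was at 38.6, 43.3 and 39.2 FPKM in the Kasumi-1 controls and at 51.9, 53.1 and 52.7 FPKM with OGP46. The treated samples were almost equal and all above the controls, with a log2 fold change of 0.38 (SE 0.06, limma-adjusted p = 0.0550, or 0.0110 with the block). ATP6V1A, the ATP-splitting subunit of the V1 sector, was at 21.1, 21.1 and 20.6 FPKM and then at 28.1, 25.4 and 26.7 FPKM. Its log2 fold change was 0.35 (SE 0.06, limma-adjusted p = 0.0611, or 0.0172 with the block), close to the 0.39 of NB4, where its groups overlapped. ARSB, a sulfatase of dermatan sulfate, was at 3.08, 3.00 and 2.90 FPKM and then at 3.99, 3.83 and 4.08 FPKM (log2 fold change 0.40, SE 0.08, limma-adjusted p = 0.0891, or 0.0315 with the block). ATP6V1C1, a stalk subunit of V1, was at 11.8, 12.2 and 10.9 FPKM and then at 14.5, 14.1 and 14.1 FPKM (log2 fold change 0.29, SE 0.07, limma-adjusted p = 0.101, or 0.0389 with the block). Both genes were higher in every OGP46 sample. ASAH1 was at 24.1, 27.0 and 27.6 FPKM and then at 33.3, 29.7 and 34.4 FPKM (log2 fold change 0.31, limma-adjusted p = 0.126, or 0.0465 with the block). NPC2 was at 31.6, 29.9 and 25.6 FPKM and then at 40.4, 36.4 and 33.7 FPKM (log2 fold change 0.34, limma-adjusted p = 0.140, or 0.0159 with the block). In these last 2 genes too the groups did not overlap.

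The OGP46 responses of the cell lines were then compared in one model, as the log2 fold change in NB4 minus that in Kasumi-1. No member differed at an adjusted p below 0.05, and neither did any of the 12309 genes tested (0.0%). At an unadjusted p below 0.05, 8 members had the larger change in NB4 and 0 in Kasumi-1, with 9.95% of all genes on the NB4 side. The members' median difference was 0.15, close to the 0.12 of all genes, and it was 0.01, 0.0035 and −0.0049 after TPM scaling, median centring and quantile normalization. With the block, 1 member passed, NEU1, where 1.93% of all genes did. NEU1 was at 28.7, 27.8 and 27.0 FPKM in the Kasumi-1 controls and 31.7, 30.99 and 29.8 FPKM with OGP46. Its log2 fold change was 0.15 there and 0.59 in NB4. The difference of 0.45 (SE 0.13, limma-adjusted p = 0.263, or 0.0311 with the block) was not called with the block under the 3 other scalings. Without the block the 5 smallest p-values belonged to NPC1 (a difference of 0.42), NEU1, GAA (0.43), SCARB2 (0.34) and ATP6V1H (0.30), all larger in NB4. NPC1, GAA, SCARB2 and ATP6V1H had adjusted p-values of 0.243, 0.290, 0.293 and 0.395 from limma without the block and 0.133, 0.0521, 0.140 and 0.217 with it. NPC1 was at 2.29, 2.46 and 2.50 FPKM in the Kasumi-1 controls and 2.87, 2.73 and 2.66 FPKM with OGP46. SCARB2 was at 9.39, 10.6 and 8.96 FPKM and then at 11.4, 10.9 and 10.7 FPKM there. In both genes the lowest OGP46 sample stood above the highest control. ATP6V1H, a regulatory V1 subunit, was at 9.11, 10.4 and 8.41 FPKM in the NB4 controls and 11.9, 12.1 and 12.6 FPKM with OGP46, while the Kasumi-1 groups overlapped at 11.3, 10.6 and 9.74 FPKM and 11.6, 10.8 and 11.2 FPKM.

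Larger differences lay between the untreated cell lines. Of 46 members tested in the controls, 4 were higher in NB4 (22.7% of all 12302 genes) and 19 lower (29.7%). The median log2 difference, NB4 minus Kasumi-1, was −0.35 for the members and −0.10 for all genes. The V-ATPase genes (−0.10) matched all genes, and the other lysosomal genes lay lower (−0.64). Of the 10 glycosidases, 8 were lower in NB4 and 1 higher, with a median of −1.21. After TPM scaling 5 members were higher and 15 lower (29.1% and 24.4% of all genes). After median centring the counts were 5 and 14 (27.1% and 25.7%), and after quantile normalization 4 and 17 (26.0% and 25.8%).

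GAA differed most among the hydrolases. It encodes acid α-glucosidase, the enzyme that degrades glycogen in lysosomes. GAA (chr17:80101581-80119881) was at 1.48, 1.53 and 1.83 FPKM in the NB4 controls and at 48.3, 56.2 and 48.8 FPKM in the Kasumi-1 controls, a 31.7-fold difference of the means. Its log2 difference was −4.90 (SE 0.11, limma-adjusted p = 4.5e-08). With OGP46 it was at 2.09, 2.05 and 2.41 FPKM in NB4 and at 47.8, 53.0 and 50.4 FPKM in Kasumi-1, so it was higher in every treated NB4 sample and overlapped between the Kasumi-1 groups. NPC2 was at 5.26, 6.13 and 5.81 FPKM in the NB4 controls and at 31.6, 29.9 and 25.6 FPKM in the Kasumi-1 controls, 5.07-fold apart, while its partner NPC1 did not differ by a called amount (log2 difference 0.13). Mannosidases came next. MAN2B1 was at 113, 126 and 98.6 FPKM in the Kasumi-1 controls, 3.74-fold over NB4, and MANBA at 13.7, 14.4 and 12.6 FPKM there against 3.46, 3.21 and 3.70 FPKM, 3.93-fold. In none of these genes did the cell lines overlap.

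Enzymes and helpers of sphingolipid breakdown were also lower in NB4. ASAH1 was at 8.45, 7.72 and 7.26 FPKM in the NB4 controls against 24.1, 27.0 and 27.6 FPKM in Kasumi-1 (log2 difference −1.74, limma-adjusted p = 3.1e-07). PSAP was at 79.0, 84.3 and 88.0 FPKM against 214, 237 and 199.7 FPKM (log2 difference −1.37). HEXA, a subunit of β-hexosaminidase, was at 19.9, 18.7 and 19.4 FPKM against 43.4, 49.0 and 44.5 FPKM (−1.23). The cell lines were fully separated in each of the 3. GLB1, the lysosomal β-galactosidase, was at 14.3, 15.5 and 15.7 FPKM against 35.5, 38.2 and 36.3 FPKM (−1.27), and GUSB, the β-glucuronidase, at 19.0, 24.2 and 20.9 FPKM against 47.02, 48.8 and 49.3 FPKM (−1.18). SCARB2 was at 4.20, 4.47 and 4.06 FPKM against 9.39, 10.6 and 8.96 FPKM (−1.16). All of these stayed past the threshold with each of the 3 other scalings. The remaining members lower in NB4 were ATP6V1A (−1.07), SGSH (−1.04), IDS (−1.01), NEU1 (−0.82), PPT1 (−0.79), SMPD1 (−0.65), NAGLU (−0.64), ATP6AP2 (−0.63) and ATP6AP1 (−0.62). SGSH was below 0.36 FPKM in every sample and overlapped between the lines, and its call was lost after median centring. SMPD1, NAGLU, ATP6AP1 and ATP6AP2 fell under the minimum of 0.58 with TPM scaling and with median centring.

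**Figure D4:**
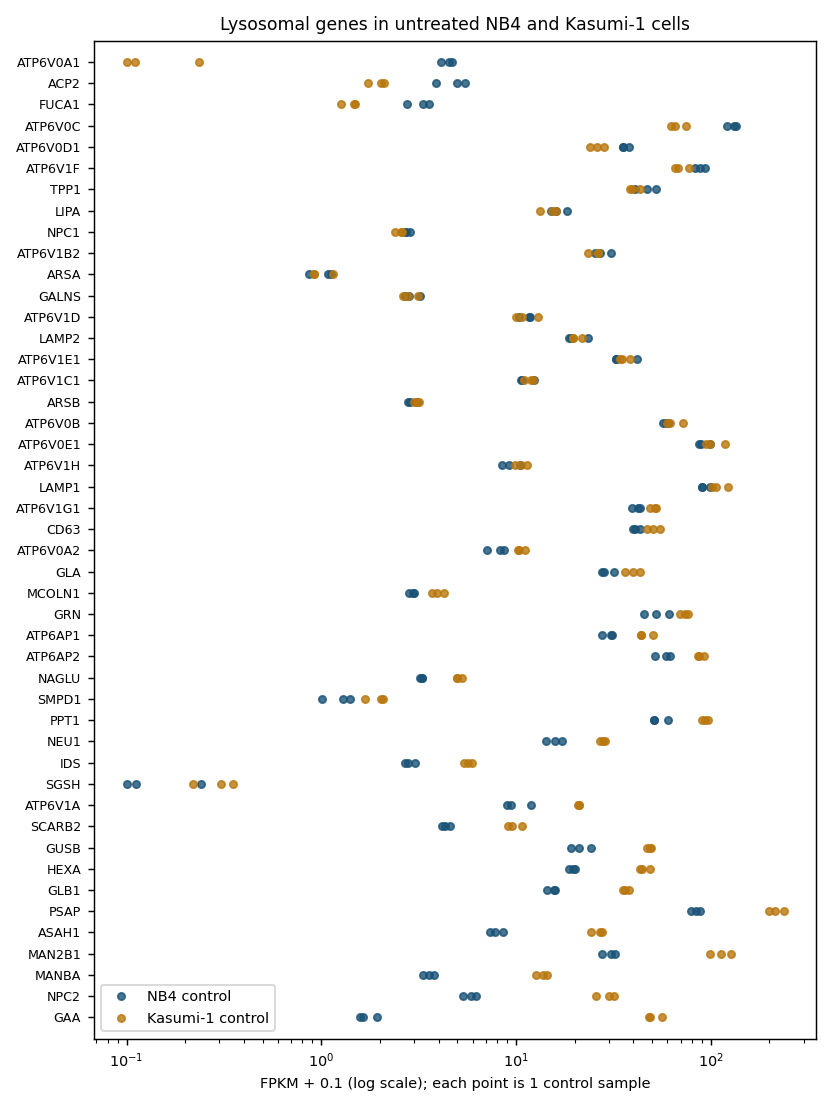
FPKM + 0.1 on a log scale (x axis) of the 46 members tested between the untreated lines, ordered by log2 difference (y axis), in the 3 NB4 controls (blue) and the 3 Kasumi-1 controls (brown). The lines are far apart at both ends, with ATP6V0A1 at the top at 4.02 to 4.61 FPKM in NB4 and at most 0.134 FPKM in Kasumi-1, and GAA at the bottom at 1.48 to 1.83 FPKM in NB4 and 48.3 to 56.2 FPKM in Kasumi-1. They mix in the middle, where most V1 genes stand.

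The members higher in NB4 were ATP6V0A1, ACP2 (log2 difference 1.28), FUCA1 (1.19) and ATP6V0C (0.94). ATP6V0C was at 134, 132 and 121 FPKM in the NB4 controls against 62.2, 74.3 and 65.2 FPKM in Kasumi-1, without overlap (limma-adjusted p = 9.7e-06). ATP6V0A1 was at 4.61, 4.02 and 4.42 FPKM in the NB4 controls and was listed at 0, 0.134 and 0.0102 FPKM in the Kasumi-1 controls and at 0, 0.0201 and 0.00930 FPKM with OGP46. Its log2 difference of 5.02 (limma-adjusted p = 7.7e-07) depends on the pseudocount of 0.1, and no fold is given. Subunit a exists as isoforms encoded by ATP6V0A1, ATP6V0A2, TCIRG1 and ATP6V0A4, of which TCIRG1 and ATP6V0A4 come from the list of related genes. In the NB4 controls TCIRG1 was at 21.3, 22.9 and 19.6 FPKM and held 63.4 ± 3.61% (SD, n = 3) of the summed FPKM of the 4 genes, with 23.7 ± 2.62% for ATP6V0A2 and 12.96 ± 0.992% for ATP6V0A1. In the Kasumi-1 controls ATP6V0A2 held 68.6 ± 1.63% and TCIRG1 31.1 ± 1.26%. The sum of the 4 was 33.6 ± 1.18 FPKM in the NB4 controls and 15.3 ± 0.987 FPKM in the Kasumi-1 controls (SD, n = 3 each). Thus the untreated lines differed in which isoform dominated. With OGP46, TCIRG1 held 60.6 to 64.3% in NB4 and ATP6V0A2 held 70.8 to 76.2% in Kasumi-1, so the dominant isoform of each line was the one of its controls. ATP6V0A4 was at or below 0.0216 FPKM in all 12 samples.

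**Figure D5:**
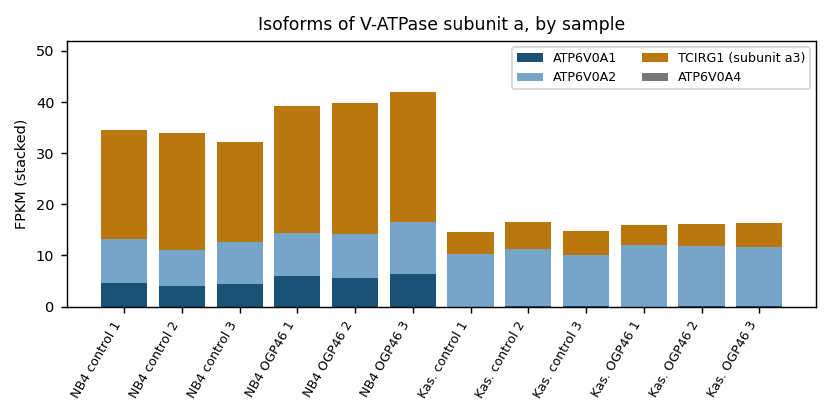
Stacked FPKM (y axis) of the 4 genes for isoforms of V-ATPase subunit a in each of the 12 samples (x axis, Kas. for Kasumi-1). TCIRG1 forms the largest part of every NB4 bar and ATP6V0A2 of every Kasumi-1 bar, and ATP6V0A1 is visible only in NB4.

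Other genes of the pathway were followed through a list of 52 related genes that was drawn up by function. In NB4, 45 were tested and 1 was up-regulated (1.45% of all genes), CTBS, a chitobiase of glycoprotein breakdown. It was at 3.74, 3.90 and 3.29 FPKM in the controls and 5.73, 5.15 and 5.95 FPKM with OGP46, without overlap (log2 fold change 0.61, limma-adjusted p = 0.0383). With the block 2 were up-regulated (5.06% of all genes), CTBS and the MiT/TFE factor TFE3, and 1 down-regulated, ATP6V1C2, an isoform of the V1 subunit C. TFE3 was at 8.58, 5.84 and 8.65 FPKM and then at 15.3, 9.31 and 13.4 FPKM in NB4. Each OGP46 sample exceeded all controls (log2 fold change 0.71, limma-adjusted p = 0.0883, or 0.000507 with the block). ATP6V1C2 was at 4.51, 4.91 and 5.69 FPKM and then at 3.12, 1.39 and 0.705 FPKM, opposite in direction to the more abundant ATP6V1C1 (log2 fold change −1.71, limma-adjusted p = 0.0681, or 0.00267 with the block). The median of the related genes was 0.23, against 0.18 for all genes, and 43 of the 45 were above 0, as were 81.9% of all genes. With TPM scaling, median centring or quantile normalization and no block, 0 related genes passed.

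In Kasumi-1, 0 of 46 related genes tested passed the threshold (0.0338% of all genes), with 13 higher (12.0% of all genes) and 0 lower at an unadjusted p below 0.05. TFE3 was at 4.04, 4.47 and 3.95 FPKM and then at 5.45, 5.45 and 6.43 FPKM (log2 fold change 0.46, limma-adjusted p = 0.0829, or 0.0278 with the block). TFEC, another MiT/TFE factor, was at 6.32, 5.82 and 5.93 FPKM and then at 7.79, 7.54 and 8.08 FPKM (log2 fold change 0.37, limma-adjusted p = 0.0755, or 0.0244 with the block). In both factors every OGP46 sample exceeded every control. TFEB was at 0.416 to 0.632 FPKM in the NB4 controls and 0.367 to 0.630 FPKM in the Kasumi-1 controls, and its log2 fold changes of 0.36 and −0.07 did not pass.

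Between the untreated lines 10 related genes were higher in NB4 (22.7% of all genes) and 24 lower (29.7%), of 47 tested. The counts were 12 and 19 after TPM scaling (29.1% and 24.4% of all genes), 10 and 20 after median centring (27.1% and 25.7%) and 11 and 22 after quantile normalization (26.0% and 25.8%). TFEC was at 0.0193, 0.0398 and 0.0915 FPKM in the NB4 controls, far below the Kasumi-1 values above. Genes for the sorting of hydrolases differed as well. SORT1, the receptor sortilin, was at 0.0593, 0.140 and 0.165 FPKM in NB4 against 10.8, 10.4 and 11.3 FPKM in Kasumi-1, and GNPTAB, which builds the mannose 6-phosphate tag, was at 7.23, 6.29 and 6.93 FPKM against 32.5, 29.3 and 30.2 FPKM. IGF2R, a receptor for that tag, stood the other way round, at 14.9, 12.4 and 12.9 FPKM against 7.20, 7.18 and 7.08 FPKM. Of the 18 further hydrolases and cofactors tested, 13 were lower in NB4 and 0 higher, and of the 6 genes of tagging and sorting, 4 were lower and 2 higher.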

How the data were processed

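Human NB4 and Kasumi-1 cells were profiled by mRNA-seq in 12 samples, grouped as labelled. The authors deposited FPKM values, 1 per gene symbol and sample. Per the labels, a stranded kit was used, and the submitters' processing notes name Trimmomatic, HISAT2, Cufflinks, HTSeq and the build hg38 without versions. Whether counting used strand is not given in the sources used here. FPKM hold no counts, so no counting error is given, and precision rests on 3 samples per group.

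In each sample 27 symbols turned into dates were left out. log2(FPKM + 0.1) was compared by limma 3.58.1 (R 4.3.3, empirical Bayes with trend) over all genes whose mean reached 0.1 FPKM, with Benjamini-Hochberg adjustment over all of them. The method was tested on simulated data. These had independent samples and no shift of all genes, so they cannot show how the calls fare with a shift or with correlated samples. Exact permutation of 3 against 3 samples cannot give a p below 0.10 and was not used. Further tools were Python 3.11.15, pandas 2.3.3 and matplotlib 3.10.9.

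Sample numbers were taken as pairing control and OGP46 samples, since the deviations of same-numbered samples from their group means correlated at 0.35, 0.62 and 0.20 in NB4 and 0.22, 0.16 and 0.40 in Kasumi-1, across the genes tested. The fit without this block is the main one, as the study names no pairing.

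The members and lists were chosen with earlier results of these data known. Members past the threshold in either fit, the 5 with the smallest p in each comparison, the extremes of each role in NB4 and the highest and lowest by level are given by name, with values in every sample for the 12 with the smallest p in a comparison and, in NB4, for the role extremes as well. Related genes named one by one were chosen after their values were seen. Promoters and gene starts come from RefSeq on GRCh38.p14, and exon overlaps from GENCODE release 29. Other settings were pseudocounts, filters, scalings, moderation, the block and leaving out samples.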

Additional observations from a re-analysis of the deposited data

Results flagged for a closer look

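One result differed between the cell lines by a test of the difference itself. The log2 fold change of NEU1 with OGP46 was larger in NB4 than in Kasumi-1 by 0.45 when same-numbered samples were compared, with an adjusted p of 0.0311 from limma, and every one of the 3 pairs was higher with OGP46 in both lines. Without the block the adjusted p from limma was 0.263, and with the block it was not called after TPM scaling, median centring or quantile normalization.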

How the results depend on the processing

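The count of members called in NB4, 5 as reported, was 2 with a pseudocount of 1 and 0 with no filter, TPM scaling, median centring, quantile normalization or no trend. With the replicate block it was 5, or 2, 1 and 1 with TPM scaling, median centring and quantile normalization added. It was 9 with no minimum fold change. It lay between 0 and 6 when 1 sample was left out. The combinations of the replicate block with no minimum fold change were chosen after seeing the data. In NB4 they gave 26, then 20, 9 and 13 with those 3 scalings and 30, 10 and 22 without pair 1, 2 or 3. In Kasumi-1 they gave 6, then 25, 7 and 15, and 2, 17 and 4 without those pairs.

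The members' median in NB4 (0.35) became 0.29 with a pseudocount of 1, and 0.22, 0.13 and 0.18 with TPM scaling, median centring and quantile normalization, with or without the block, and 0.30 to 0.37 without 1 sample. In Kasumi-1 (0.16) it became 0.093 with median centring, with or without the block, and 0.13 to 0.20 without 1 sample. The members called there remained at 0 without any 1 sample. The count of members that differed in response, 0 as reported, was 1 with the replicate block and 0 again when TPM scaling, median centring or quantile normalization was added to the block. Fits without any 1 sample, which had no block, gave 0. Between the control lines the median (−0.35) became −0.15 with TPM scaling and −0.21 with median centring, with or without the block, and −0.39 to −0.32 without 1 sample, where 21 to 23 members were called.

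Changes of direction in NB4 were counted among the members past the threshold, with the smallest p or at the extremes of a role. Members outside this set were not counted, although GLA went from 0.087 to −0.039 with TPM scaling. Within the set, directions turned for 6 members, with or without the block where a scaling is named. ATP6V0A2 was −0.026 with median centring and −0.0037 with quantile normalization, LAMP1 −0.011 and GRN −0.033 with median centring, MAN2B1 −0.077, −0.17 and −0.12 and PPT1 −0.0068, −0.10 and −0.018 with TPM scaling, median centring and quantile normalization. When 1 sample was left out, MAN2B1 ranged from −0.017 (without control sample 1) to 0.0995 and ATP6V1F from −0.050 to 0.040 (without control sample 2). The causes of these changes were not tested. Same-numbered controls of the cell lines correlated at −0.05 to 0.02, so the numbers do not pair them, and the replicate block there gave 23 members called as before. The block changed no other call of a member that also met the minimum fold change. Depth could not be weighed because FPKM hold no counts.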
